A study of Homo sapiens with 9 samples.

Results

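The NRF2 pathway is the main transcriptional defence of cells against oxidants and electrophiles, and 36 of its genes were followed here in A375 melanoma cells exposed to Salvianolic acid B (SalB). The genes were chosen by name, as rows of the deposited count table whose symbol is NRF2 itself, one of its regulators, or an enzyme of glutathione, thioredoxin, NADPH, detoxification or superoxide metabolism. All 36 were found among the 20463 annotated genes of the table, and all 36 passed the filter on low counts that left 13968 genes for testing. A375 is an established human melanoma line, and SalB is a plant phenolic from Salvia miltiorrhiza. The study has 3 groups of 3 libraries, numbered 1 to 3 in the labels, which give 1 batch value for all 9. Control cells were left untreated, and the other groups received SalB at 100 µM or at 200 µM for 48 h. All groups are the same cell line, and the labels name no transgene, no deletion and no vehicle for the control. Nothing says whether the replicates were separate cultures, so the p-values measure the spread between these libraries, which may be technical.

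NRF2, the product of *NFE2L2*, is held at a low level by KEAP1, an adaptor that presents it to a CUL3 ubiquitin ligase. Oxidants and electrophiles modify KEAP1, after which NRF2 accumulates, pairs with a small MAF protein and binds antioxidant response elements (AREs) near its target genes, while BACH1 competes for the same elements. This control acts mainly on the protein, so the mRNA levels measured here do not report the amount or the location of NRF2. The targets make glutathione, recycle thioredoxin, regenerate NADPH and reduce reactive carbonyls and quinones. Since RNA was measured from whole cultures, fewer cells with a transcript and less of it per cell cannot be told apart.

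The letters of the ARE core, TGACNNNGC, were looked for on both strands of RefSeq windows (GRCh38.p14) that run from 250 bases before to 50 after a gene's start. Windows were at hand for 32 of the 36 genes; *GSR*, *PRDX1*, *PRDX6* and *SOD1* had no entry. The letters stood in a window of 12 of these 32 genes (37.5%), against 16.1% of all 27305 genes with a window. A gene can have several windows. Counted by window, the shares were 26.5% of 49 for these genes and 13.3% of 35116 for all. Of the 12, 6 are shown as examples picked with their levels known, so that genes of each course are seen side by side: *TXNRD1*, *GCLM*, *ME1* and *EPHX1*, which were higher at 200 µM, *GSTP1*, which was not called at either dose, and *IDH1*, which was lower at 200 µM. *TXNIP*, which moved against most of the others, is shown for another motif. Each line is read 5′ to 3′ on the strand of its gene, and the capitals mark the ARE core, which in *GCLM* lies on the opposite strand.
TXNRD1, chr12:104215660-104215708, plus strand: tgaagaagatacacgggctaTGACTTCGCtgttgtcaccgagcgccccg
GCLM, chr1:93909436-93909484, minus strand: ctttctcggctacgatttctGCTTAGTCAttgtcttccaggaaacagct
ME1, chr6:83431160-83431208, minus strand: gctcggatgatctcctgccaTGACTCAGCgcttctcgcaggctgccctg
EPHX1, chr1:225825256-225825304, plus strand: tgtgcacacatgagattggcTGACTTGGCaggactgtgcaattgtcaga
GSTP1, chr11:67583726-67583774, plus strand: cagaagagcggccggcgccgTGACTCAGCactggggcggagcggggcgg
IDH1, chr2:208255186-208255234, minus strand: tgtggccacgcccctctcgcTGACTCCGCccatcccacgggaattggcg
In *ME1* and *GSTP1* the core overlaps the letters of an AP-1 site, TGACTCA, which stand in a window of 15.6% of the 32 genes and of 6.05% of all genes. Counted by window, these shares were 10.2% and 4.95%. In the *TXNIP* window the capitals mark the carbohydrate response element, which was present in 1 of the 32 genes and in 20 of the 27305 genes (0.073%).
TXNIP, chr1:145996631-145996687, minus strand: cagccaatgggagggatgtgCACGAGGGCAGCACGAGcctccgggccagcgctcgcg
Such matches describe letters only and show no binding.

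Depth was 27348621 to 30629685 counts per library. Levels are given as CPM, the usual scaling of a count to its library size, here after TMM normalisation. Differences are log2 fold changes ± SE from edgeR's quasi-likelihood test over all 9 libraries, and a gene was called at a Benjamini-Hochberg adjusted p under 0.05 over the 13968 genes. The lineage markers *SOX10* (341 CPM in control), *MCAM* (431 CPM) and *CSPG4* (286 CPM) were present, whereas the pigment genes *PMEL*, *MLANA*, *TYR*, *DCT* and *TYRP1* had group means of 1.22 CPM or less. Of 8 leukocyte markers *CD3E* and *MS4A1* had no count in any library, and the summed level of the 8 was 21.6 to 25.2 CPM in control, 18.1 to 20.2 CPM at 100 µM and 59.2 to 84.6 CPM at 200 µM, most of it from *CD68*. Of 7 fibroblast or endothelial markers, 6 or 7 had counts in each library, with a summed level of 19.4 to 20.6 CPM in control, 50 to 54.0 CPM at 100 µM and 27.4 to 33.9 CPM at 200 µM. Of 6 epithelial markers, 2 to 4 had counts, with sums of 191 to 197 CPM in control, 258 to 286 CPM at 100 µM and 264 to 339 CPM at 200 µM, nearly all from *KRT18*, and *KRT5* was at 0. The part of these markers in the results was not tested. A single library stood apart. In 200 µM replicate 3 the 13 mitochondrially encoded mRNAs took 4.75% of counts, against 1.83% and 1.87% in the other 2 libraries of the dose, 2.11% to 2.32% in control and 2.86% to 3.15% at 100 µM. The log2 gap between GC-rich and GC-poor genes, relative to control, was -0.30 in that library, 0.48 and 0.96 in the other libraries at 200 µM and 0.70 to 0.93 at 100 µM. The control libraries lay at -0.16 to 0.16, so the other treated libraries also differed from control in this gap. What sets 200 µM replicate 3 apart was not tested, and counts are given with and without it.

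Of the genes called at 100 µM most were lower than control, and of those called at 200 µM most were higher. They were not all the same genes. Against control, *NQO1* and *TXN* were called only at 100 µM, for example, and *GCLM* and *OSGIN1* only at 200 µM. At 100 µM, 14 of the 36 genes were lower than in control and 4 were higher, with a median log2 fold change of -0.29. The background was 18.2% of all genes lower and 18.9% higher, 37.1% in either direction, with a median of -0.01. At 200 µM, 18 of the 36 were higher and 5 lower, with a median of 0.35, against a background of 19.8% higher and 17.5% lower, 37.3% in either direction, and a median of 0.00. Between the doses, 24 of the 36 were higher at 200 µM than at 100 µM and 4 were lower, with a median of 0.73, against 22.4% and 21.9% of all genes, 44.4% in either direction. Without 200 µM replicate 3, 21 were lower and 5 higher at 100 µM, 24 higher and 7 lower at 200 µM, and 25 higher and 5 lower between the doses. Calls over all genes also rose without it, to 7943 from 5181 at 100 µM, to 7614 from 5211 at 200 µM and to 7668 from 6196 between the doses. Both comparisons with control use the same 3 control libraries.

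**Figure D1:**
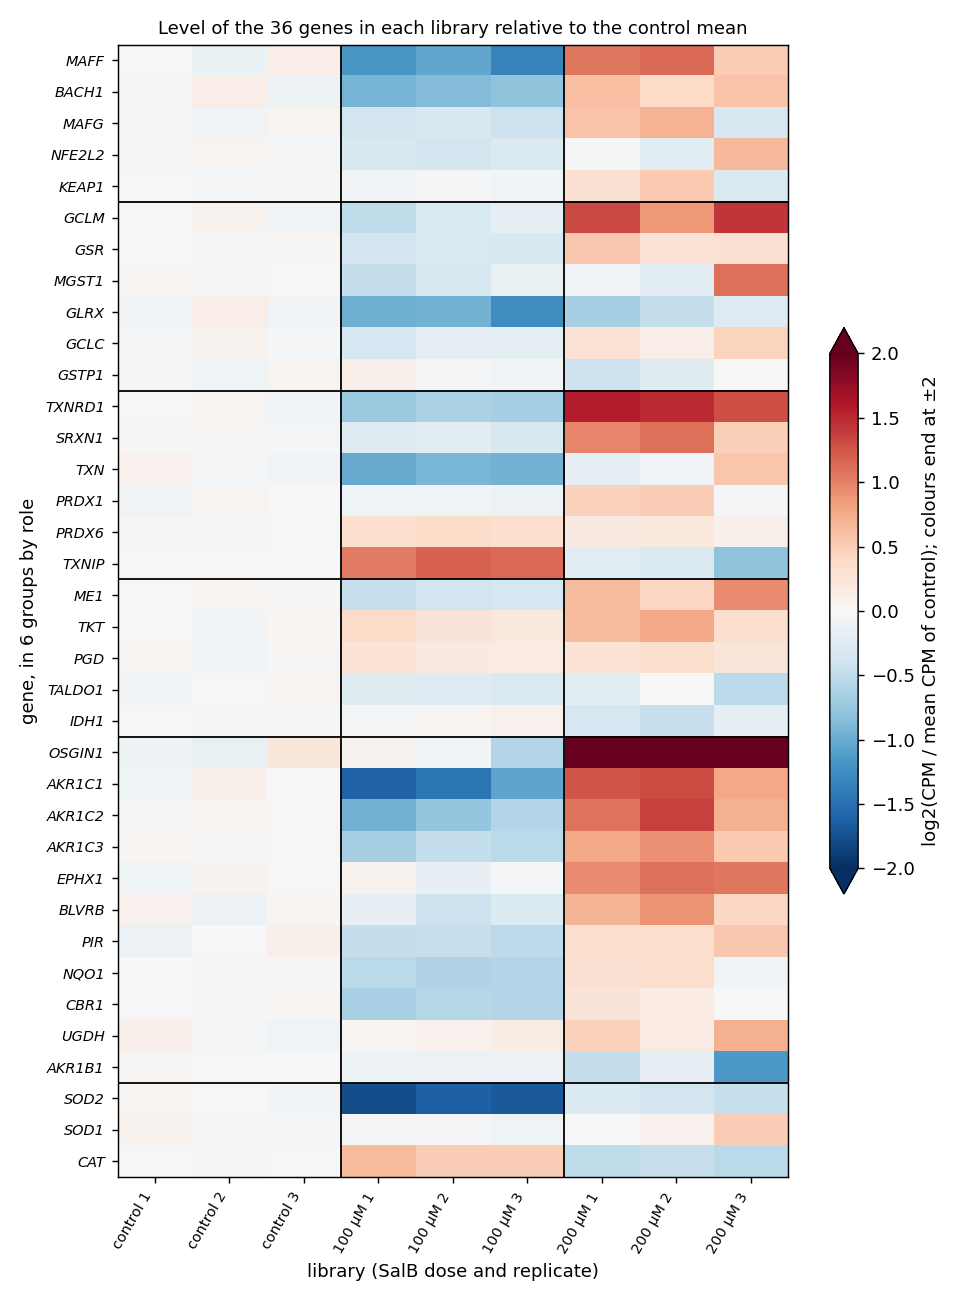
Level of each of the 36 genes (rows, in 6 groups by role) in each of the 9 libraries (columns), as log2 of CPM over the control mean, with colours ending at ±2. Most rows are blue at 100 µM and red at 200 µM, *TXNIP* and *CAT* run the other way, and 200 µM replicate 3 differs from its neighbours for *NFE2L2*, *MGST1*, *MAFG* and *AKR1B1*.

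In control cells the genes spanned a wide range of levels per transcript length. CPM per kilobase of annotated exon (RPKM) were highest for the peroxidase gene *PRDX1* (618 ± 27.1, SD, n = 3), for *TXN*, encoding thioredoxin (412 ± 20.4), for the quinone reductase gene *NQO1* (314 ± 6.43) and for *GSTP1*, a glutathione transferase (297 ± 16.0). The lowest were *OSGIN1*, an oxidative stress-induced growth inhibitor (0.871 ± 0.125), and the aldo-keto reductase *AKR1C1* (1.78 ± 0.114). The libraries of *NQO1* and *GSTP1* overlapped on this scale, and *TKT* (65.6 ± 2.48) and *PGD* (65.0 ± 2.62) differed by less than their spread, so neither pair has a clear order. The exon length joins all annotated exons of a gene, so the scale understates genes with many rarely used exons. *SOD2* has no value per length. Its identifier is absent from the GENCODE v29 annotation used for lengths, and no single gene there was matched to it by symbol.

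In control cells *NFE2L2* had 199, 212 and 201 CPM, in 100 µM cells 163, 158 and 167 CPM, and in 200 µM cells 200, 176 and 319 CPM. All 3 libraries at 100 µM lay below control, and at 200 µM replicate 3 lay far above the other 2. *NFE2L2* was not called against control, at -0.33 ± 0.19 (edgeR adjusted p = 0.202) for 100 µM and 0.18 ± 0.19 (edgeR adjusted p = 0.48) for 200 µM. Without 200 µM replicate 3 its value at 100 µM was -0.30 (edgeR adjusted p = 8.8e-04) and at 200 µM -0.11 (0.17), so that 1 library decides both the sign at the higher dose and the call at the lower. *KEAP1*, which encodes the adaptor that targets NRF2 for destruction, was near its control level at 100 µM (-0.04 ± 0.17, edgeR adjusted p = 0.87). *KEAP1* levels were 86.6, 86.1 and 88.6 CPM in control, 84.0, 86.0 and 83.7 CPM at 100 µM and 107, 126 and 71.5 CPM at 200 µM. Replicate 3 lay below control and the other 2 above it, and the value at 200 µM was 0.22 ± 0.17 (edgeR adjusted p = 0.34), or 0.43 (6.0e-04) without that library. Of the *NFE2L2* exons, 20.9% are shared with other annotated genes, chiefly AC019080.1 on the same strand, so its counts are less certain.

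Of the competitors and partners of NRF2, *BACH1* and *MAFF* moved more. *BACH1* stood at 91.5, 103 and 87.3 CPM in the control libraries, at 49.2, 51.6 and 53.6 CPM at 100 µM and at 142, 123 and 140 CPM at 200 µM. The 3 groups did not overlap. *BACH1*, the repressor at AREs, fell at 100 µM (-0.87 ± 0.09, edgeR adjusted p = 1.7e-04) and rose at 200 µM (0.53 ± 0.09, edgeR adjusted p = 0.0021), and was 1.39 ± 0.09 higher on the log2 scale at 200 µM than at 100 µM. *MAFF* encodes a small MAF partner that lacks an activation domain of its own. In control cells *MAFF* had 38.6, 35.2 and 42.4 CPM, in 100 µM cells 17.2, 18.8 and 15.3 CPM, and in 200 µM cells 79.99, 84.6 and 55.1 CPM. Here too the groups were separate. The change was -1.18 ± 0.17 (edgeR adjusted p = 7.5e-04) at 100 µM and 0.92 ± 0.16 (edgeR adjusted p = 0.0022) at 200 µM. *MAFG*, another small MAF gene, was at -0.37 ± 0.22 and 0.38 ± 0.22 and was not called against control. Its libraries at 200 µM were 101, 111 and 54.8 CPM, and without replicate 3 the value there was 0.65 (edgeR adjusted p = 2.6e-05). Between the doses *MAFG* was higher (0.75 ± 0.22, edgeR adjusted p = 0.021), a call lost without any 1 of the 100 µM libraries or without 200 µM replicate 1 or 2 (0.53 to 0.76, adjusted p = 0.060 to 0.079).

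Glutathione synthesis begins with glutamate-cysteine ligase, whose catalytic subunit is encoded by *GCLC* and whose modifier subunit is encoded by *GCLM*, the gene with the ARE core letters printed above. *GCLM* levels were 39.2, 41.2 and 37.4 CPM in control, 27.6, 31.6 and 34.7 CPM at 100 µM and 98.3, 71.9 and 105 CPM at 200 µM. Every library at 200 µM lay above every control library. *GCLM* (ENSG00000023909, protein-coding, GRCh38 chromosome 1, 93885205 to 93909456) rose at 200 µM, by 1.23 ± 0.15 (edgeR adjusted p = 2.8e-04), and was not called at 100 µM (-0.33 ± 0.15, 0.11). There the value turned to 0.08 (0.40) after removal of each library's trend with GC content, and the gene was called as lower without 200 µM replicate 2 (-0.30, 0.034). *GCLC* stood at 65.9, 70.5 and 65.1 CPM in the control libraries, at 53.4, 59.1 and 59.3 CPM at 100 µM and at 81.7, 73.7 and 91.3 CPM at 200 µM. *GCLC* rose by a smaller amount at 200 µM (0.29 ± 0.10, edgeR adjusted p = 0.04). That call was lost without any 1 of the control or 100 µM libraries or without 200 µM replicate 1 (0.27 to 0.33, adjusted p = 0.050 to 0.12). *GSR*, encoding glutathione reductase, which regenerates glutathione with NADPH, was -0.33 ± 0.09 at 100 µM and 0.38 ± 0.09 (edgeR adjusted p = 0.0078) at 200 µM. Its call at 100 µM was lost without control replicate 1 or 3 or any 1 library of that dose (-0.33 to -0.31, adjusted p = 0.052 to 0.060).

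The other glutathione genes did not share that course. In control cells *GLRX* had 68.5, 78.9 and 68.8 CPM, in 100 µM cells 36.5, 37.2 and 30.5 CPM, and in 200 µM cells 45.4, 51.6 and 60.1 CPM. *GLRX*, encoding glutaredoxin, was the glutathione gene with the largest fall at 100 µM (-1.05 ± 0.13, edgeR adjusted p = 3.4e-04) and was also lower than control at 200 µM (-0.46 ± 0.13, edgeR adjusted p = 0.019). The latter call was lost without control replicate 2 (-0.39, 0.078) or 200 µM replicate 1 (-0.37, 0.060). *GSTP1*, which carries the TGACTCAGC letters, was not called at 100 µM (0.01 ± 0.11, edgeR adjusted p = 0.94) or at 200 µM (-0.21 ± 0.11, edgeR adjusted p = 0.15), and without 200 µM replicate 3 it was lower at 200 µM (-0.31, 0.0061). *MGST1*, a microsomal glutathione transferase, had 36.3, 32.3 and 80.9 CPM at 200 µM against 36.8 to 38.9 CPM in control. Its value at 200 µM was 0.40 ± 0.30 (edgeR adjusted p = 0.33) and was -0.12 (0.30) without replicate 3, so 1 library sets its sign.

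Thioredoxin reductase 1, a selenoenzyme that passes electrons from NADPH to thioredoxin, is encoded by *TXNRD1* (ENSG00000198431, protein-coding, chromosome 12, 104215779 to 104350305). *TXNRD1* levels were 632, 651 and 605 CPM in control, 378, 404 and 395 CPM at 100 µM and 1866, 1765 and 1543 CPM at 200 µM. The groups were far apart, with no overlap. *TXNRD1* fell by 0.68 ± 0.08 on the log2 scale at 100 µM (edgeR adjusted p = 3.1e-04) and rose by 1.45 ± 0.08 at 200 µM (4.5e-06), and the libraries at 200 µM averaged 4.40 times those at 100 µM (log2 2.14 ± 0.08, 4.6e-07). *SRXN1*, encoding sulfiredoxin, which repairs over-oxidised peroxiredoxins, followed at 200 µM. *SRXN1* stood at 59.5, 59.3 and 57.0 CPM in the control libraries, at 49.4, 49.9 and 47.2 CPM at 100 µM and at 116, 125 and 81.3 CPM at 200 µM. It rose by 0.87 ± 0.14 (edgeR adjusted p = 0.0014) there and was not called at 100 µM (-0.26 ± 0.14, edgeR adjusted p = 0.18). Most of its annotated exons (85.0%) also belong to AL121758.1 on the same strand, for which the table gave 0 to 5 counts per library. Without 200 µM replicate 3, *SRXN1* was called as lower at 100 µM (-0.24, 0.0045).

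In control cells *TXN* had 498, 459 and 456 CPM, in 100 µM cells 234, 251 and 245 CPM, and in 200 µM cells 420, 443 and 693 CPM. *TXN*, the thioredoxin gene, fell at 100 µM (-0.95 ± 0.17, edgeR adjusted p = 0.0025). It was not called at 200 µM (0.14 ± 0.17, edgeR adjusted p = 0.55), where replicate 3 lay above and the other 2 libraries below all controls, and the value without replicate 3 was -0.11 (0.14). The gene has 7 named pseudogenes, so its counts are less certain. *PRDX1*, a peroxiredoxin, was not called at either dose (-0.10 ± 0.13 and 0.32 ± 0.13), but was called as higher at 200 µM without replicate 3 (0.49, 1.7e-05). It shares 24.9% of its exons with *MMACHC* on the opposite strand, which had 495 to 1039 counts per library. *PRDX6*, a peroxiredoxin that also reduces phospholipid peroxides, rose at 100 µM (0.34 ± 0.06, edgeR adjusted p = 0.0029), with 328 to 335 CPM against 257 to 265 CPM in control. At 200 µM it was at 0.16 ± 0.06 (edgeR adjusted p = 0.065), or 0.21 (0.0030) without 200 µM replicate 3.

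*TXNIP* encodes an arrestin-like protein that binds and inhibits thioredoxin and is known as a target of glucose-sensing factors. *TXNIP* levels were 18.1, 18.2 and 18.4 CPM in control, 37.6, 41.3 and 39.999 CPM at 100 µM and 15.6, 14.9 and 10.5 CPM at 200 µM. The 100 µM libraries stood far above all others, and the 200 µM libraries below. *TXNIP* rose by 1.12 ± 0.14 on the log2 scale at 100 µM (edgeR adjusted p = 4.0e-04), and its level at 200 µM was -1.54 ± 0.14 (edgeR adjusted p = 3.6e-05) relative to 100 µM. At 200 µM against control it was -0.42 ± 0.14 (edgeR adjusted p = 0.044), a call lost in 13 of 19 alternatives, among them leaving out any 1 control or 100 µM library (-0.42 to -0.41, adjusted p = 0.063 to 0.104), while without 200 µM replicate 3 the value was -0.25 (0.020). Its relatives and regulators were read from a list of 7 genes, 6 of them tested, with 2 higher and 2 lower at 100 µM (18.9% and 18.2% of all genes) and 3 higher and 1 lower at 200 µM (19.8% and 17.5%). *ARRDC4*, the closest arrestin relative, was 0.32 ± 0.11 (edgeR adjusted p = 0.042) at 100 µM and -0.35 ± 0.11 (edgeR adjusted p = 0.03) at 200 µM. The first call was lost without any 1 control or 100 µM library (0.29 to 0.38, adjusted p = 0.058 to 0.14). The second was lost without any 1 control library, 100 µM replicate 2, or 200 µM replicate 1 or 2 (-0.38 to -0.29, adjusted p = 0.053 to 0.12). *MLXIP*, encoding the glucose-sensing factor MondoA, rose at 100 µM (1.05 ± 0.11, edgeR adjusted p = 1.8e-04). It was also called as higher than control at 200 µM. That call was lost without control replicate 1 or 2 or 200 µM replicate 2 (0.30 to 0.40, edgeR adjusted p = 0.056 to 0.089). *ARRDC3*, another arrestin-like gene, fell at 100 µM (-1.19 ± 0.11, edgeR adjusted p = 8.9e-05). *ARRDC1*, of the same family, rose at 200 µM (0.82 ± 0.21, edgeR adjusted p = 0.013).

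**Figure D2:**
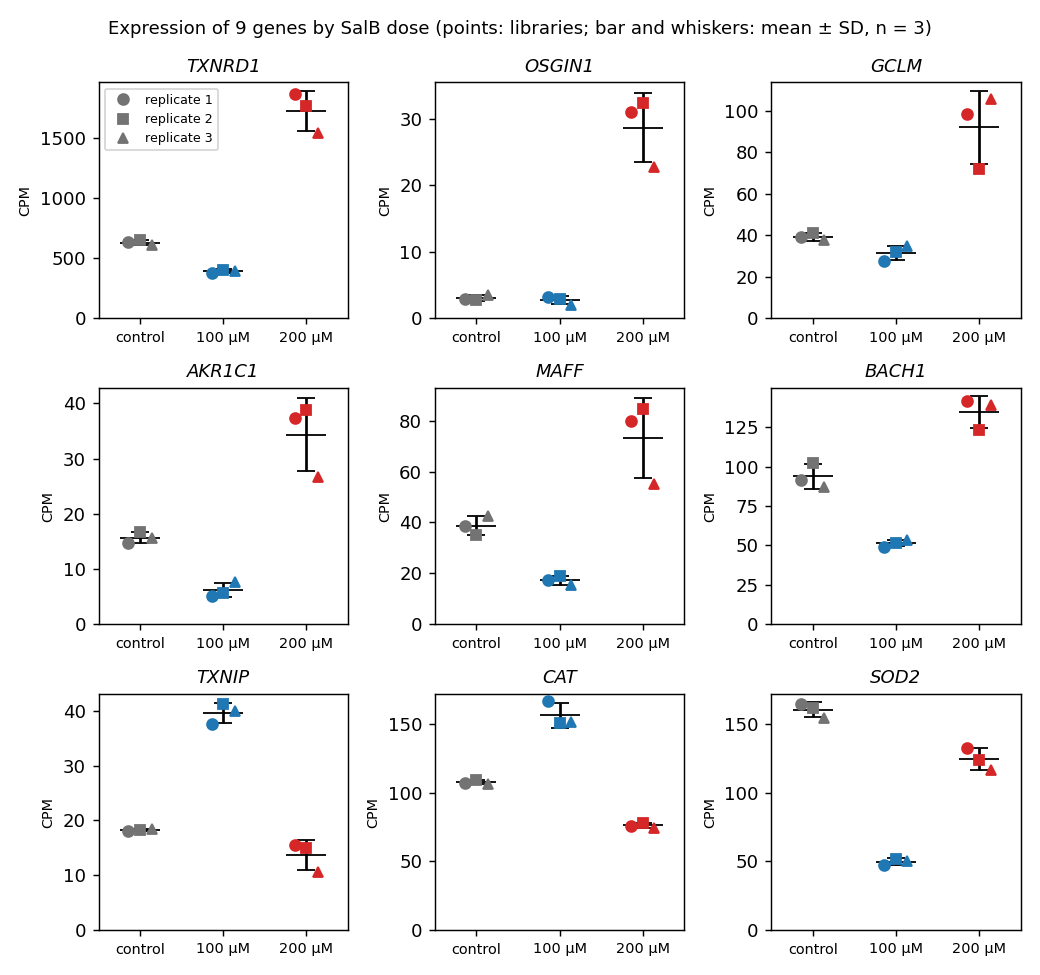
CPM of 9 genes in control, 100 µM and 200 µM cells (points: the 3 libraries; bar and whiskers: mean ± SD, n = 3; each axis starts at 0). *TXNRD1*, *GCLM*, *AKR1C1*, *MAFF* and *BACH1* are highest at 200 µM, *TXNIP* and *CAT* are highest at 100 µM, and *SOD2* is lowest at 100 µM.

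NADPH supplies the electrons for both thiol systems. In the oxidative pentose phosphate pathway, *PGD*, encoding 6-phosphogluconate dehydrogenase, was 0.20 ± 0.07 (edgeR adjusted p = 0.044) at 100 µM and 0.29 ± 0.07 (edgeR adjusted p = 0.01) at 200 µM. The first call was lost without any 1 control or 100 µM library (0.17 to 0.24, adjusted p = 0.069 to 0.17) and after removal of each library's trend with GC content (0.05, 0.53), and the second without control replicate 2 (0.26, 0.053). *TKT* stood at 630, 598 and 644 CPM in the control libraries, at 813, 748 and 720 CPM at 100 µM and at 952, 1051 and 789 CPM at 200 µM. *TKT*, the transketolase of the non-oxidative arm, rose at 200 µM (0.58 ± 0.10, edgeR adjusted p = 0.0026), with all 3 libraries above control. At 100 µM all 3 libraries also lay above control, and the value was 0.28 ± 0.10 (edgeR adjusted p = 0.060). Without 200 µM replicate 3 *TKT* was called as higher at 100 µM too (0.31, 0.0014). *TALDO1*, encoding transaldolase, was not called at either dose (-0.26 ± 0.12 and -0.23 ± 0.12), and was called as lower at 100 µM without 200 µM replicate 3 (-0.24, 0.0060) and at 200 µM without its replicate 2 (-0.35, 0.022).

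In control cells *ME1* had 50.2, 51.9 and 49.5 CPM, in 100 µM cells 36.9, 38.6 and 39.6 CPM, and in 200 µM cells 78.5, 67.3 and 97.5 CPM. *ME1*, encoding cytosolic malic enzyme and holding the printed core, rose at 200 µM (0.68 ± 0.12, edgeR adjusted p = 0.0026). Its value at 100 µM was -0.40 ± 0.13 (edgeR adjusted p = 0.034), a call lost without any 1 control or 100 µM library or 200 µM replicate 1 (-0.41 to -0.37, adjusted p = 0.054 to 0.11) and after GC correction (-0.09, 0.18). *IDH1*, encoding cytosolic isocitrate dehydrogenase, went the other way at 200 µM. *IDH1* levels were 236, 239 and 232 CPM in control, 232, 242 and 249 CPM at 100 µM and 187, 172 and 206 CPM at 200 µM. It fell there (-0.32 ± 0.08, edgeR adjusted p = 0.012) and was not called at 100 µM (0.03 ± 0.08, edgeR adjusted p = 0.78).

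Detoxification enzymes made up the largest group, with 8 of 11 higher and 0 lower at 200 µM and 6 lower and 0 higher at 100 µM, against 19.8% and 17.5% of all genes at 200 µM and 18.2% and 18.9% at 100 µM. The 3 *AKR1C* genes, which cannot be counted as independent, are among the 8 and among the 6. *OSGIN1* (ENSG00000140961, protein-coding, chromosome 16, 83948282 to 83966332) had the largest rise of all 36 genes at 200 µM. *OSGIN1* stood at 2.81, 2.72 and 3.51 CPM in the control libraries, at 3.18, 2.89 and 2.01 CPM at 100 µM and at 31.0, 32.4 and 22.8 CPM at 200 µM. It rose by 3.25 ± 0.21 on the log2 scale (edgeR adjusted p = 1.0e-05), and the mean was 9.54 times that of control. It was not called at 100 µM (-0.16 ± 0.21, edgeR adjusted p = 0.58). AC009119.2, on the same strand, shares 13.9% of its exons.

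Aldo-keto reductases of the 1C family reduce steroids and lipid aldehydes. In control cells *AKR1C1* had 14.7, 16.7 and 15.5 CPM, in 100 µM cells 5.11, 5.68 and 7.55 CPM, and in 200 µM cells 37.4, 38.8 and 26.7 CPM. *AKR1C1* fell at 100 µM (-1.36 ± 0.18, edgeR adjusted p = 6.3e-04) and rose at 200 µM (1.13 ± 0.18, edgeR adjusted p = 0.0012), with no overlap between the groups. *AKR1C2* had values of -0.76 ± 0.16 and 1.08 ± 0.16, and *AKR1C3* of -0.56 ± 0.11 and 0.74 ± 0.11, all 4 of them called. After GC correction the falls of *AKR1C2* (-0.49, adjusted p = 0.12) and *AKR1C3* (-0.33, 0.13) at 100 µM were no longer called. The annotated coding sequences of *AKR1C1* and *AKR1C2* are 98.0% identical, and that of *AKR1C3* is 92.0% and 91.4% identical to them. Reads of these genes can be assigned to the wrong copy, so the 3 do not count as independent. *AKR1B1*, encoding aldose reductase, was not called at either dose. Its 200 µM libraries had 132, 163 and 82.1 CPM, all below the control range of 181 to 185 CPM, and the value was -0.54 ± 0.20 (edgeR adjusted p = 0.059). Without 200 µM replicate 3 it was called as lower (-0.29, 0.012), and likewise without replicate 2 (-0.77, 0.0072).

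*NQO1* levels were 1026, 1042 and 1000 CPM in control, 703, 671 and 679 CPM at 100 µM and 1266, 1311 and 986 CPM at 200 µM. *NQO1*, the quinone reductase that is the classical NRF2 marker, fell at 100 µM (-0.58 ± 0.10, edgeR adjusted p = 0.0025). At 200 µM it was 0.22 ± 0.10 (edgeR adjusted p = 0.13), with replicate 3 just below the control range and the other 2 above it. Without that library *NQO1* was called as higher (0.35, 1.0e-04). *CBR1*, a carbonyl reductase, was similar, at -0.60 ± 0.08 (edgeR adjusted p = 7.1e-04) and 0.14 ± 0.08 (edgeR adjusted p = 0.22), and at 200 µM without replicate 3 it was 0.22 (0.0079). *NQO1* and *CBR1* share 17.7% and 18.9% of their exons with antisense genes, and no source at hand states how strand was handled in counting.

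*EPHX1* stood at 17.6, 19.5 and 18.8 CPM in the control libraries, at 19.7, 16.6 and 18.4 CPM at 100 µM and at 35.9, 40.2 and 38.9 CPM at 200 µM. *EPHX1*, encoding microsomal epoxide hydrolase, rose at 200 µM (1.04 ± 0.10, edgeR adjusted p = 7.0e-05) and was not called at 100 µM (-0.03 ± 0.10, edgeR adjusted p = 0.82). *BLVRB*, a biliverdin and flavin reductase, rose at 200 µM (0.68 ± 0.13, edgeR adjusted p = 0.0037), and *PIR*, an iron-binding nuclear protein gene, fell at 100 µM (-0.49 ± 0.09) and rose at 200 µM (0.41 ± 0.09, edgeR adjusted p = 0.0073). *BLVRB* was not called at 100 µM (-0.28 ± 0.13, edgeR adjusted p = 0.13), but was called as lower there without 200 µM replicate 3 (-0.26, 0.040) and after GC correction (-0.56, 4.3e-04). *UGDH*, which makes UDP-glucuronate for conjugation, rose at 200 µM (0.46 ± 0.13, edgeR adjusted p = 0.022). It was no longer called once control replicate 2 (0.45, 0.073) or 3 (0.42, 0.081) was left out.

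**Figure D3:**
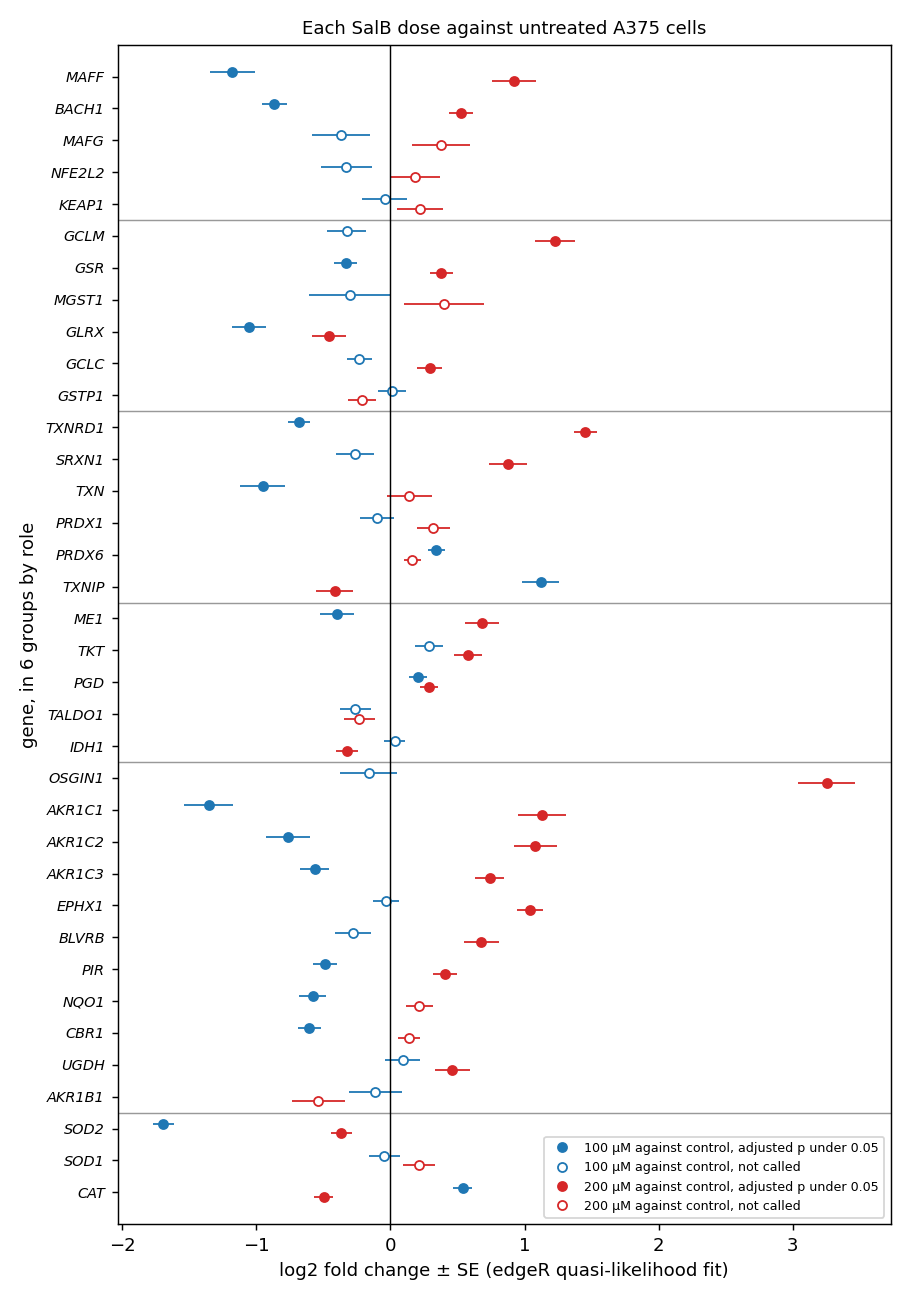
Log2 fold change ± SE of each of the 36 genes at 100 µM (blue) and 200 µM (red) against untreated cells, grouped by role, with filled points for an adjusted p under 0.05. *SOD2* lies farthest left at 100 µM (-1.69) and *OSGIN1* farthest right at 200 µM (3.25); both sets of points use the same control libraries.

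Enzymes that remove superoxide and hydrogen peroxide directly differed from one another. Mitochondrial superoxide dismutase is encoded by *SOD2* (ENSG00000291237; GRCh38.p14 chromosome 6, 159669069 to 159762281), which is known as an NF-kB target as well as an antioxidant gene. In control cells *SOD2* had 165, 162 and 154 CPM, in 100 µM cells 47.0, 51.9 and 50.05 CPM, and in 200 µM cells 133, 124 and 117 CPM. The groups were separate, and the 100 µM group had the lowest level. *SOD2* had the largest fall of the 36 genes at 100 µM (-1.69 ± 0.08, edgeR adjusted p = 2.6e-06) and was also lower than control at 200 µM (-0.37 ± 0.08, edgeR adjusted p = 0.0058). *CAT* levels were 107, 109 and 107 CPM in control, 167, 151 and 152 CPM at 100 µM and 76.1, 78.4 and 74.4 CPM at 200 µM. *CAT*, encoding the peroxisomal catalase, rose at 100 µM (0.54 ± 0.07, edgeR adjusted p = 5.3e-04) and fell at 200 µM (-0.50 ± 0.07, edgeR adjusted p = 7.2e-04), again with no overlap. *SOD1*, encoding the cytosolic dismutase, was not called at either dose (-0.04 ± 0.12 and 0.21 ± 0.12), and its libraries at 200 µM were 201, 214 and 282 CPM.

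The dose comparison itself was tested. Of the 24 genes higher at 200 µM than at 100 µM, 20 kept the call in every alternative that could be fitted to them (19, and 17 for *SOD2*, which has no GC value). They were led by *OSGIN1* (3.41 ± 0.22), *AKR1C1* (2.49 ± 0.19), *TXNRD1* (2.14 ± 0.08) and *MAFF* (2.10 ± 0.17). The other 4 were *MAFG*, *PRDX1*, *TKT* and *UGDH*. *PRDX1* (0.42 ± 0.13) lost its call without any 1 of the 100 µM libraries or 200 µM replicate 1 or 2 (0.30 to 0.42, adjusted p = 0.064 to 0.097). *TKT* (0.29 ± 0.10) lost it without any 1 library other than 200 µM replicate 3 (0.17 to 0.34, adjusted p = 0.059 to 0.18), and *UGDH* (0.37 ± 0.13) without any 1 library other than 200 µM replicate 2 (0.22 to 0.38, adjusted p = 0.064 to 0.13). The genes lower at 200 µM were *TXNIP* (-1.54 ± 0.14), *CAT* (-1.04 ± 0.07), *IDH1* (-0.36 ± 0.08) and *PRDX6* (-0.18 ± 0.06), the last lost without any 1 control or 100 µM library or 200 µM replicate 1 (-0.20 to -0.18, adjusted p = 0.068 to 0.11).

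The libraries at 200 µM agreed less with each other than those of the other groups. The median coefficient of variation of the 36 genes was 3.70% in control, 3.84% at 100 µM and 16.8% at 200 µM. Replicate 3 lay below both other libraries for 21 genes, above both for 12 and between them for 3. Neither measure was taken over all genes. Over annotated genes, the difference between 2 libraries was read as a chi-square per degree of freedom. It was 109 and 148 between replicate 3 and replicates 1 and 2, and 23.0 between those 2. In control it was 7.22 to 10.0 and at 100 µM 8.15 to 17.2. In 200 µM replicate 3 *MGST1* was 2.36 times the mean of the other 2 libraries and *MAFG* was 0.515 times it. Leaving replicate 3 out added 8 calls at 200 µM against control and removed 0, beside 7614 of all genes called in place of 5211. *AKR1B1* and *GSTP1* were added as lower, and *CBR1*, *KEAP1*, *MAFG*, *NQO1*, *PRDX1* and *PRDX6* as higher. It also added 8 calls at 100 µM against control, a comparison that shares its estimate of the spread with that library. Calls over all genes there were 7943 in place of 5181. *TKT* was added as higher, and *BLVRB*, *GCLC*, *MAFG*, *MGST1*, *NFE2L2*, *SRXN1* and *TALDO1* as lower. Removing each library's trend with GC content added, at 100 µM, calls as lower for *KEAP1* (-0.37, edgeR adjusted p = 0.0051), *MAFG* (-0.63, 0.0068), *SRXN1* (-0.44, 0.0057), *TALDO1* (-0.51, 1.2e-04), *BLVRB* (-0.56, 4.3e-04) and *OSGIN1* (-0.55, 0.018), and as higher for *IDH1* (0.18, 0.012) and *UGDH* (0.34, 0.0035). At 200 µM against control it added calls as lower for *TALDO1* (-0.32, 0.0012) and *AKR1B1* (-0.63, 0.0071). Between the doses it added calls as higher for *NFE2L2* (0.45, 0.033), *KEAP1* (0.46, 0.0010), *PGD* (0.18, 0.018) and *TALDO1* (0.18, 0.019). The correction also removed calls. Lost at 100 µM were *PGD* (0.05, 0.53), *ME1* (-0.09, 0.18), *AKR1C2* (-0.49, 0.12) and *AKR1C3* (-0.33, 0.13), and lost at 200 µM against control was *TXNIP* (-0.36, 0.10). Calls over all genes after that correction were 5397 in place of 5181 at 100 µM and 6581 in place of 5211 at 200 µM. Between the doses they were 7304 in place of 6196. *SOD2* has no GC value and was not in the fit with GC correction.

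**Figure D4:**
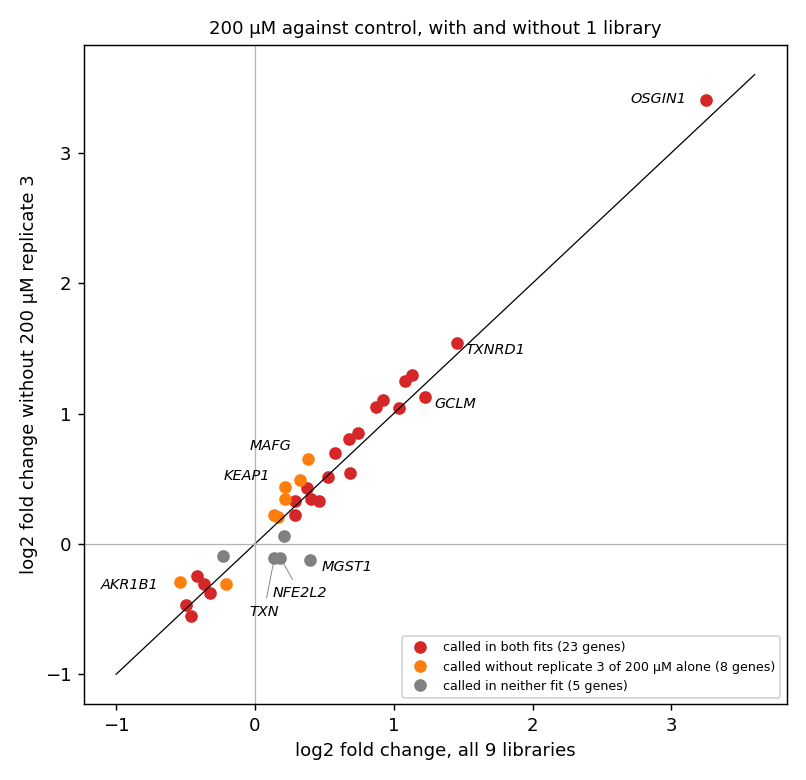
Log2 fold change of the 36 genes at 200 µM against control with all 9 libraries (horizontal) and without 200 µM replicate 3 (vertical), with the line of equality. Orange points are the 8 genes called only without that library; *NFE2L2*, *TXN* and *MGST1* (grey) lie above 0 with it and below 0 without it.

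Outside the 36 genes, 115 further genes of the same systems were read from lists, 100 of which were tested. Shares of all genes, to be read beside each count that follows, were 18.9% higher and 18.2% lower at 100 µM and 19.8% higher and 17.5% lower at 200 µM. At 100 µM, 16 of the 100 were higher and 31 lower, beside 5181 of all genes called. Without 200 µM replicate 3 they were 33 and 40, beside 7943 of all genes. Without control replicate 2 or 3, 10 were higher, beside 3469 and 3961 of all genes called. Without 200 µM replicate 2, 25 were higher, beside 5965 of all genes called. At 200 µM 27 were higher and 20 lower, beside 5211 of all genes called. Without 200 µM replicate 3 they were 35 and 26, beside 7614 of all genes. Between the doses 32 were higher at 200 µM and 22 lower, beside 22.4% and 21.9% of all genes. Their median log2 fold changes against control were -0.05 and -0.03, beside those of all genes (-0.01 and 0.00). Among 18 tested further NRF2 targets, 1 was higher and 5 lower at 100 µM, while 9 were higher and 2 lower at 200 µM. *HMOX1* stood at 7.90, 7.68 and 6.92 CPM in the control libraries, at 7.07, 5.22 and 6.45 CPM at 100 µM and at 243, 267 and 177 CPM at 200 µM. *HMOX1*, encoding the heme-degrading enzyme heme oxygenase 1, rose by 4.93 ± 0.19 (edgeR adjusted p = 7.6e-07) at 200 µM and was not called at 100 µM (-0.26 ± 0.17), except after GC correction, where it was lower (-0.55, 0.0048). *ABCC3*, an exporter of conjugates, fell at 100 µM (-1.06 ± 0.21) and rose at 200 µM (1.59 ± 0.21, edgeR adjusted p = 4.4e-04), whereas *ABCC1*, a glutathione-conjugate exporter, rose at 100 µM (1.18 ± 0.19, edgeR adjusted p = 0.0015). *PTGR1*, a prostaglandin reductase gene, fell at 200 µM (-0.47 ± 0.10, edgeR adjusted p = 0.0055). *SLC7A11*, the cystine importer subunit, fell at 100 µM (-0.75 ± 0.18, edgeR adjusted p = 0.012), a call lost after GC correction (-0.27, 0.069), and was at 0.01 ± 0.18 (edgeR adjusted p = 0.97) at 200 µM, or 0.29 (0.044) after GC correction.

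Of 12 tested genes that control NRF2 from outside the 36, 3 were higher and 5 lower at 100 µM (18.9% and 18.2% of all genes), and 6 higher and 2 lower at 200 µM (19.8% and 17.5%). In control cells *SQSTM1* had 422, 348 and 431 CPM, in 100 µM cells 137, 170 and 131 CPM, and in 200 µM cells 1596, 1759 and 1266 CPM. *SQSTM1*, encoding p62, an autophagy adaptor that can sequester KEAP1, fell at 100 µM (-1.46 ± 0.15, edgeR adjusted p = 1.4e-04) and rose at 200 µM (1.94 ± 0.15, edgeR adjusted p = 2.6e-05). It shares 20.7% of its exons with *MRNIP* on the other strand, which had 531 to 1771 counts per library. *GSK3B*, a kinase that marks NRF2 for an alternative degradation route, fell at both doses (-0.40 ± 0.10 and -0.68 ± 0.10, edgeR adjusted p = 6.4e-04). *BACH2*, a lymphoid relative of *BACH1* present at 1.07 to 2.41 CPM, was higher at both doses (0.72 ± 0.23 and 0.81 ± 0.23). Its call at 100 µM was lost without control replicate 1 or 3 (adjusted p = 0.12 and 0.099) or without 100 µM replicate 1 or 3 (0.13 and 0.088). The call at 200 µM was lost without control replicate 1 or 3 (0.080 and 0.071) or 200 µM replicate 1 (0.053).

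The remaining lists held genes called in both directions, and the shares of all genes were again 18.9% higher and 18.2% lower at 100 µM and 19.8% and 17.5% at 200 µM. Other glutathione genes had 4 of 24 tested higher and 9 lower at 100 µM, and 4 higher and 7 lower at 200 µM. *GPX1*, the main cytosolic glutathione peroxidase, fell at 200 µM (-1.89 ± 0.17, edgeR adjusted p = 6.4e-05), and *GSTO1*, an omega-class transferase, fell at 100 µM (-0.82 ± 0.14, edgeR adjusted p = 0.002). *GGT1*, a gamma-glutamyltransferase gene, had 0 counts in all 3 control libraries, 11, 30 and 31 at 100 µM, and 8, 5 and 5 at 200 µM. Other thioredoxin and peroxiredoxin genes had 2 of 15 higher and 3 lower at 100 µM, and 1 higher and 4 lower at 200 µM. *SESN2*, a stress-induced sestrin, rose at 200 µM (1.08 ± 0.17, edgeR adjusted p = 0.0014). It was also called as higher at 100 µM (0.51, edgeR adjusted p = 0.0445), a call lost in 12 of 19 alternatives. *TXNDC17*, a thioredoxin-like gene, fell at 200 µM (-0.78 ± 0.18, edgeR adjusted p = 0.0098) and shares 32.4% of its exons with *MED31* on the other strand. It was also called as lower at 100 µM (-0.64, edgeR adjusted p = 0.024), a call lost in 9 of 19 alternatives. Other NADPH genes had 4 of 18 higher and 5 lower at 100 µM, and 2 higher and 3 lower at 200 µM. *H6PD*, which makes NADPH in the endoplasmic reticulum, rose at 100 µM (0.78 ± 0.15, edgeR adjusted p = 0.0041). The mitochondrial folate enzyme gene *ALDH1L2* rose at 200 µM (0.68 ± 0.17, edgeR adjusted p = 0.013), and *MTHFD2L* fell at both doses (-1.03 ± 0.19 and -0.87 ± 0.19). *ALDH1L2* was also called as higher at 100 µM (0.54, edgeR adjusted p = 0.035), a call lost in 6 of 19 alternatives. Of 11 further genes of superoxide production and removal, 7 were tested, with 0 higher and 2 lower at 100 µM and 2 higher and 1 lower at 200 µM. *NOX4*, a hydrogen peroxide-producing oxidase, fell at both doses (-2.05 ± 0.15 and -1.23 ± 0.15, edgeR adjusted p = 2.6e-04).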

How the data were processed

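RNA-seq gene counts were analysed for 9 A375 libraries, 3 per group. The counts are whole numbers per feature, deposited by the authors as 1 table. FastQC, HISAT2, featureCounts, DESeq2 and the build GRCh38 are named per the submitters' processing notes; annotation, versions and strand setting were not stated in any source used here. Of 22605 features, 20463 annotated genes were kept, and 2142 assembled transcripts (1.25% to 1.41% of counts) were left out.

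The computed steps began from these counts. edgeR 4.0.16 (R 4.3.3) with TMM scaling, filterByExpr and the robust quasi-likelihood F test was fitted to all 9 libraries by group (6 residual degrees of freedom), with Benjamini-Hochberg adjustment over 13968 genes. SEs were derived from each log2 fold change and its F statistic. Of the 19 alternatives, DESeq2 1.42.0 was 1. Exon lengths and GC content (known for 13884 tested genes) came from GENCODE v29. With 3 libraries against 3, exact two-sided permutation of 1 gene cannot go below 0.1, so none was run. Depth was 27348621 to 30629685 counts per library.

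All 36 genes are named. Of each other list, the called genes with the largest rise and the largest fall against control at each dose are named, besides *HMOX1*, *SLC7A11* and *SQSTM1*; a few genes that this rule also names are not reported here. The members and lists were chosen with earlier results of these data known. A change of sign was counted only where a gene was called.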

Additional observations from a re-analysis of the deposited data

How the results depend on the processing

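The calls for the 36 genes were recomputed under 19 alternatives. Of the genes called, 13 of 18 at 100 µM, 18 of 23 at 200 µM and 23 of 28 between the doses kept the call in every alternative fitted to them, which were 17 for *SOD2*, a gene with no GC value. At 100 µM the fit to only the 2 groups compared called 8417 genes in place of 5181, 23 of the 36 genes as lower in place of 14, and 33 other pathway genes as higher in place of 16. Leaving out 1 library at a time gave 3469 to 7943 genes, 12 to 21 of the 36 lower and 10 to 33 other pathway genes higher, with the highest of each without 200 µM replicate 3. At 200 µM it gave 3 to 7 of the 36 lower in place of 5. Calls over all genes were then 3719 to 7614 in place of 5211. The GC correction there called 31 other pathway genes as lower in place of 20, as it did together with the replicate block. Over all genes it called 6581, or 6056 with the block. The cause was not tested. At 100 µM the sign turned after GC correction for *ARRDC1* (-0.37, and -0.37 with the replicate block), which was not called without it.

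Libraries with the same replicate number did not deviate together: 9 same-number pairs correlated at -0.16 to 0.03, and 18 pairs of different number at -0.06 to 0.17. With the replicate number as a block, 4264 genes were called at 100 µM, with 3 of the 36 higher and 13 lower. At 200 µM 17 were higher and 4 lower, beside 4369 of all genes called in place of 5211. Between the doses 22 were higher and 3 lower, beside 5404 of all genes in place of 6196.

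Each group has 3 libraries, and those at 200 µM differ most from each other, which limits the precision. *OSGIN1*, the lowest of the 36 genes per length in control, had 2.72 to 3.51 CPM there. Sharing of reads between near-identical genes and between strands could not be resolved from gene counts. A missed call does not show that a level was unchanged.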
